A study of Mus musculus with 14 samples.

Results

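Immediate-early transcription factors are the genes that a cell transcribes first after a stimulus, before any new protein is made. The 10 genes described here were Fos, Fosb, Jun, Junb, Egr1, Egr2, Egr3, Atf3, Nr4a1 and Ier2, chosen by symbol from the 46095 gene symbols of the count table. RNA-seq was carried out on the superior mesenteric artery (SMA), the vessel that supplies most of the small intestine, of 14 C57BL/6 mice aged 8 weeks. The normal groups held 3 Drp1 +/+ mice (WT) and 4 Drp1 flox/+ mice (KO), and the ischemia groups held 3 Drp1 +/+ mice and 4 Drp1 flox/+ mice. Ischemia was produced by bleeding, so the whole animal and not only the artery was under-perfused. The sample labels give 2 h for the ischemia groups, whereas the study elsewhere names a longer period for these groups, so the time between bleeding and sampling is uncertain for genes that respond within minutes. The study's methods describe the KO mice as heterozygotes made by CRISPR/Cas9 frameshift, while the labels call the allele flox, and no Cre driver is named, so the genotype is used here as labelled. Drp1 is encoded by Dnm1l, the GTPase that divides mitochondria.

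Immediate-early genes sit downstream of kinases that carry signals from the membrane to factors already waiting at the promoter, such as serum response factor (SRF) with its Elk partners and the cAMP response element binding protein (CREB). Fos and Jun proteins pair with each other as the AP-1 complex, Egr proteins are zinc-finger factors, Atf3 is a stress-induced member of the ATF/CREB family, and Nr4a1 is an orphan nuclear receptor. In arteries these genes respond to stretch, growth factors, vasoconstrictors and injury.

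All 10 genes passed the low-count filter that left 17693 genes for testing, and the lowest count of any of them in any mouse was 18, for Egr2. Library totals ran from 25612646 to 40255851 counts, and the 18 pairs of mice within groups all differed by more than counting noise (chi-square per degree of freedom at least 64.5). Summed smooth muscle markers stood at 7006 to 36209 CPM (counts scaled to a common library size) in the 14 libraries, as an artery should show, but brown fat markers also varied, from 157 to 6721 CPM. Dnm1l itself was 58.9 ± 3.30 CPM (SD, n = 4) in normal KO and 73.5 ± 15.1 CPM (SD, n = 3) in normal WT arteries, a log2 difference of -0.32 that did not pass the test (adjusted p = 0.974), so these libraries do not show the genotype clearly at the level of total Dnm1l RNA. The study reports fewer reads over the targeted exon and less Drp1 protein in its KO mice, measures that total gene counts do not give. The lane field of the labels sets 1 normal WT library, replicate 3, apart from the other 13.

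Nr4a1, Atf3 and Junb are the genes on which the results below turn, and Fos is the classic member that did not follow them. Their promoter windows, from 250 bases before to 50 bases after the RefSeq start, were taken from RefSeq (GRCm38.p6) and are shown with the core of the cAMP response element, the site to which CREB and ATF proteins bind, in capitals. The capitals mark TGACG on the printed strand or its reverse complement CGTCA, and every sequence is written 5′ to 3′ on the strand of the gene.
Nr4a1 (chr15:101266596-101266895, plus strand): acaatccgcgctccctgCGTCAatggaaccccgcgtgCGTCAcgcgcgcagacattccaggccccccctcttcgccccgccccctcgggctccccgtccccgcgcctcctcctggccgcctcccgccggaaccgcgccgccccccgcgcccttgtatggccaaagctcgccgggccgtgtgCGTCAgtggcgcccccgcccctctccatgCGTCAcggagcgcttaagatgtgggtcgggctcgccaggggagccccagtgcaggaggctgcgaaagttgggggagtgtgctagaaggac
Atf3 (chr1:191183284-191183583, minus strand): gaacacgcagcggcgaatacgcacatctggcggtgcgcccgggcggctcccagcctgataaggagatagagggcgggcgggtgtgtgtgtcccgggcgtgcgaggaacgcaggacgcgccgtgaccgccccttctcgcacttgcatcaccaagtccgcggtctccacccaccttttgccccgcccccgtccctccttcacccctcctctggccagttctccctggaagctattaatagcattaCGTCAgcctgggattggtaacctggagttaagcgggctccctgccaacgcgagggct
Junb (chr8:84978699-84978998, minus strand): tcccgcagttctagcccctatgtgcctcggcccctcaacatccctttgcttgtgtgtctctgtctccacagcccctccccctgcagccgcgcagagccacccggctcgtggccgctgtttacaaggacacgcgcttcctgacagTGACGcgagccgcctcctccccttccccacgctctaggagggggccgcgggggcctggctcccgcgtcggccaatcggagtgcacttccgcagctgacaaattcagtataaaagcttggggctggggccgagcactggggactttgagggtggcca
Fos (chr12:85473640-85473939, plus strand): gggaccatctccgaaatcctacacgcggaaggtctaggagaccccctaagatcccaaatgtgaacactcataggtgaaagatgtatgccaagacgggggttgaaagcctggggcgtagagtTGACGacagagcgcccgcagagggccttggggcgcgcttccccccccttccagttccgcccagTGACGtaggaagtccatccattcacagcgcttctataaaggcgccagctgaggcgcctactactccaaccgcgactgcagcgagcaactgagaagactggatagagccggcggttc
The Nr4a1 window held 4 copies of the core, at 233, 213, 69 and 40 bases upstream of the start, all of them as CGTCA. The Fos window held 2, and the Atf3 and Junb windows held 1 each, 7 and 106 bases upstream. Of the 7 members that have a window, 6 held the core, among them Fosb and Egr2, and Jun did not. Over all 32851 mouse windows of this length, 20.8% held at least 1 copy on either strand. By gene, as the members are counted, 23.0% of 27025 genes held it in at least 1 window. The complete element TGACGTCA, which contains the core, was in 1.79% of all windows and in none of these 4. No window was found for Egr1, Egr3 and Ier2. The Egr binding motif GCGNGGGCG, present in 5.55% of all windows and 6.27% of genes, was found on either strand in the Nr4a1 and Fosb windows. The CArG box, the motif bound by SRF, was found in Egr2 windows among the 7 genes, in 1.63% of all windows and in 1.81% of all genes with a window. The windows reach only 250 bases upstream, so sites further from the start were not searched in any member. A motif match describes letters in the window and does not show that a factor was bound there.

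In the GRCm38 annotation (GENCODE M21) the 10 members are protein-coding genes on separate chromosomes, except that Junb (chr8:84974484-84978718) and Ier2 (chr8:84661331-84662852) share chromosome 8. Nr4a1 spans chr15:101254269-101274795 and its window above lies within the gene, at a downstream start. Atf3 spans chr1:191170296-191218039, again with the RefSeq start inside the GENCODE gene. Junb shares 173 exon bases with Prdx2 on the opposite strand, and Jun shares 232 with the antisense gene Junos. The sources do not say whether counting used strand, so reads in those shared bases could belong to either gene. Prdx2 itself differed by -0.41 (log2, adjusted p = 0.618) between ischemic and normal WT arteries and by 0.18 (adjusted p = 0.837) in KO arteries, and Junos never exceeded 3.01 CPM.

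The members differed widely in level. Per kilobase of exon, the median over the 14 mice was highest for Nr4a1 at 107 RPKM (CPM divided by exon length in kilobases). Jun at 53.5, Junb at 50.9, Egr1 at 45.3 and Ier2 at 42.8 RPKM formed the next tier, and their ranges over the mice overlapped. Fos stood at 16.0 RPKM and Atf3 at 15.2 RPKM, with Fosb below them at 4.67 RPKM. Egr3 and Egr2 were lowest, at 0.876 and 0.725 RPKM, and at such levels a fold change rests on few reads. Below, CPM values are compared for the same gene between mice only.

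**Figure D1:**
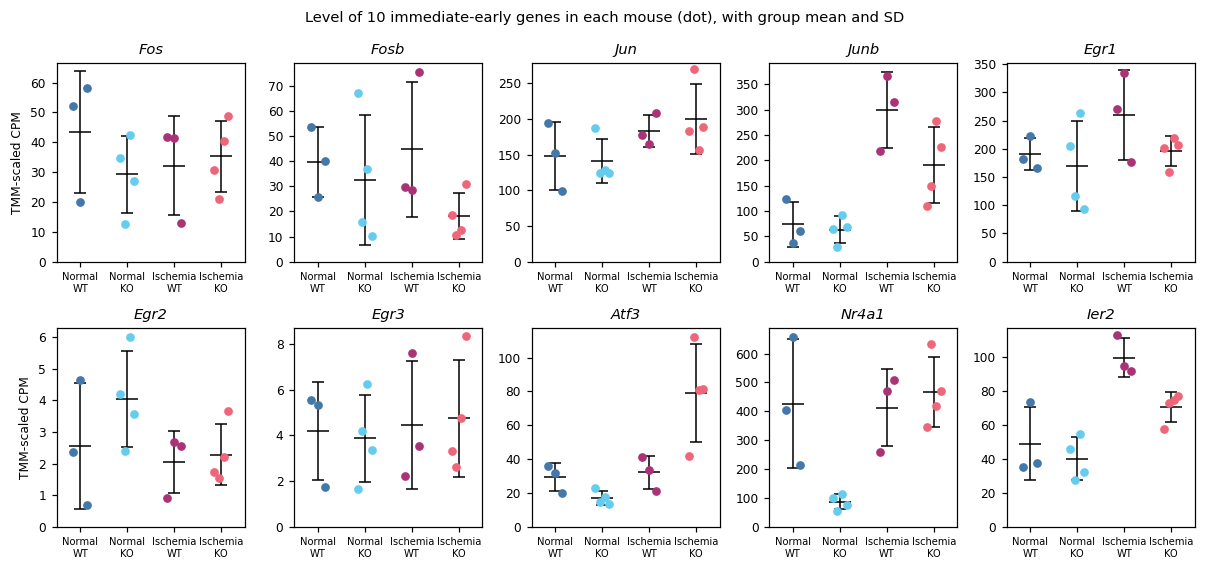
Level of each of the 10 genes in TMM-scaled CPM (linear axis from 0) for every mouse (dots) in the 4 groups, with group mean and SD (bars). Nr4a1 in the 4 normal KO mice lies at 56.2 to 114.1 CPM, below all 10 other mice, and Junb and Ier2 of the ischemia groups lie above those of the normal groups within each genotype.

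Under normal conditions, the question was which of these genes differ in an artery with a Drp1 flox/+ genotype. Nr4a1 differed most. Its level was 406.1, 658.0 and 212.3 CPM in the 3 WT mice and 100.2, 56.2, 114.1 and 74.7 CPM in the 4 KO mice. The KO values all lay under the lowest WT value, with means of 425 CPM in WT and 86.3 CPM in KO. The fitted change was -2.30 ± 0.38 (log2, SE), or 4.93-fold lower in KO. With an unadjusted p of 3.15e-05 Nr4a1 had the smallest p of all 17693 genes, yet the adjusted p was 0.557, so it did not pass the limit of 0.05.

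Atf3 was lower in KO at 23.1, 14.9, 17.3 and 13.3 CPM, against 36.1, 31.7 and 20.0 CPM in WT. The ranges overlapped through WT replicate 3 and KO replicate 1, and the change was -0.77 ± 0.32 (unadjusted p = 0.0326, adjusted p = 0.933). For the other 8 members the unadjusted p lay above 0.05, and the log2 differences ran from -0.57 for Fos to 0.66 for Egr2. No member of the 10 passed both limits of the call (adjusted p under 0.05 and fold over 1.5) by edgeR, as for 0% of all genes. Of the 10, 2 passed an unadjusted p of 0.05, against 5.25% of all genes, and 1 was without overlap between the groups, against 4.5% of all genes. The median log2 difference of the 10 was -0.25, beside -0.02 over all genes tested.

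The Nr4a1 result depended on the tool. DESeq2 gave it an adjusted p of 1.4e-05 and called it, while limma-trend, like edgeR, called none of the 10. Leaving out any 1 mouse kept the direction of Nr4a1, with log2 differences of -2.62 to -1.85 and no call. Without WT replicate 3, the library of the other lane, the difference was -2.62 (adjusted p = 0.0993). In the same comparison the erythroid markers stood at 96.1 to 218 CPM in WT and 316 to 544 CPM in KO arteries, with 1 of 4 tested markers higher at an unadjusted p under 0.05 and a median log2 difference of 1.38. Of the macrophage markers 1 of 5 (median 0.95) and of the lymphocyte markers 1 of 4 (median 1.20) were also higher at that limit. The part of these blood and immune markers in the Nr4a1 difference was not tested. None of the 5 brown fat markers passed that limit, and with their summed level as a covariate the Nr4a1 difference was -2.37 (adjusted p = 0.0641). In whole tissue, fewer cells of a type and less RNA per cell cannot be told apart.

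Nr4a2 and Nr4a3, the other receptors of the Nr4a family, were in the list of 29 tested rapid-response genes that are not members. Nr4a3 was 1.88 log2 lower in normal KO (unadjusted p = 0.0097) and Nr4a2 was 1.65 log2 lower (unadjusted p = 0.0128), both with an adjusted p above 0.8. The smallest p in the list belonged to Btg2, an antiproliferative gene, with a log2 difference of -1.17 (unadjusted p = 0.00266), followed by Csrnp1, a nuclear factor induced by Axin signaling, at -0.94 (unadjusted p = 0.00459). In all, 7 genes of the list were lower and 1 higher at an unadjusted p under 0.05, against 5.25% of all genes. Of the list, 0 passed the call, and its median was -0.19. At an unadjusted p under 0.05, 3 of 15 other AP-1 and related leucine zipper genes were lower (Mafk, Fosl2 and Fosl1). At that limit 1 was higher (Jdp2), against 5.25% of all genes in either direction, and 0 of the 15 were called. Fosl1 had 0 counts in all 4 normal KO mice and at most 5 in a normal WT mouse, so its difference rests on few reads.

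After ischemia, WT and KO arteries were compared to find out which members depend on the genotype once blood has been lost. Atf3 was the member with the smallest p. It stood at 41.1, 33.8 and 21.4 CPM in ischemic WT mice and at 41.7, 112.4, 80.9 and 81.6 CPM in ischemic KO mice. The groups did not overlap, although KO replicate 1 was within 1 CPM of the highest WT mouse. The change was 1.30 ± 0.34, or 2.47-fold higher in KO (unadjusted p = 0.00185, adjusted p = 0.715).

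Fosb, a Fos relative, was lower in ischemic KO, with 18.5, 10.6, 12.8 and 30.8 CPM against 29.9, 28.4 and 75.5 CPM in WT. The groups overlapped, since KO replicate 4 exceeded 2 of the WT mice, and the log2 difference was -1.30 ± 0.58 (unadjusted p = 0.0432). This value rested on WT replicate 3, without which it was -0.68. Ier2, a nuclear protein encoded by an early response gene, read 112.5, 94.4 and 91.3 CPM in WT and 57.3, 72.9, 74.5 and 76.9 CPM in KO arteries. Its groups did not overlap, while its log2 difference of -0.50 ± 0.28 missed the limit (unadjusted p = 0.0929). Nr4a1, in contrast to the normal groups, was 413 ± 133 CPM (SD, n = 3) in ischemic WT and 467 ± 122 CPM (SD, n = 4) in ischemic KO arteries, a log2 difference of 0.18 ± 0.37 (unadjusted p = 0.642).

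None of the 10 was called in ischemic arteries by edgeR, limma-trend or DESeq2, as for 0% of all genes by edgeR. The unadjusted p was under 0.05 for 2 members, against 6.48% of all genes, and 2 were without overlap, against 10.7% of all genes. The median log2 difference of the members was 0.11, beside -0.03 over all genes. Brown fat markers moved with this comparison, at 265 to 1375 CPM in ischemic WT and 959 to 4813 CPM in ischemic KO arteries, with 2 of 5 higher at an unadjusted p under 0.05, and 1 of 4 lymphocyte and 1 of 4 skeletal muscle markers were higher and 1 of 6 smooth muscle markers was lower. With the summed brown fat level as a covariate, Atf3 was 1.40 log2 higher in KO (adjusted p = 0.612) and the Fosb difference shrank to -0.68 (adjusted p = 0.906).

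**Figure D2:**
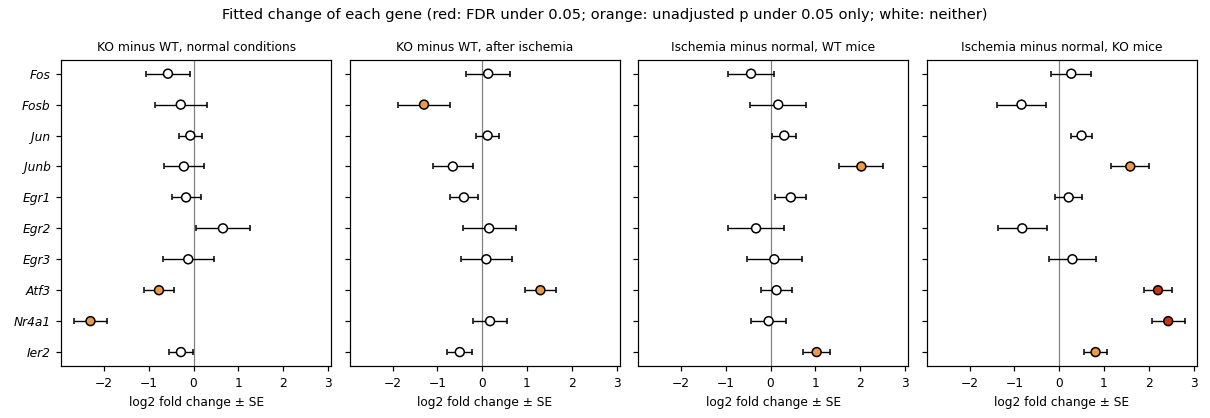
Log2 fold change (dot) with its SE (bar) of each gene in 4 comparisons, red where the adjusted p is under 0.05, orange where only the unadjusted p is under 0.05, and white otherwise. Nr4a1 and Atf3 are red in KO mice after ischemia, at 2.44 and 2.21, and sit near 0 in WT mice.

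Ischemia was then compared with normal conditions within WT mice. Junb, an AP-1 subunit, read 124.0, 37.1 and 59.9 CPM in normal mice and 218.6, 366.2 and 314.8 CPM in ischemic mice. The groups did not overlap, and the change was 2.03 ± 0.49 (log2, SE), or 4.07-fold (unadjusted p = 0.00114, adjusted p = 0.4). Ier2 read 35.2, 73.4 and 37.7 CPM in normal mice and 112.5, 94.4 and 91.3 CPM in ischemic mice, again without overlap, a change of 1.03 ± 0.30, or 2.04-fold (unadjusted p = 0.00421, adjusted p = 0.513). Atf3 and Nr4a1 were close to their normal levels in WT arteries, with log2 differences of 0.13 ± 0.35 and -0.04 ± 0.40. The remaining members had unadjusted p values above 0.2, including Fos at -0.44 ± 0.52 and Egr1 at 0.45 ± 0.35.

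By edgeR none of the 10 members was called in WT mice, where 0.0113% of all genes passed. DESeq2 called Junb (adjusted p = 0.0165) and limma-trend called none. The unadjusted p was under 0.05 for 2 members, both higher, against 9.57% of all genes, and both of these were without overlap, against 11% of all genes. The members' median log2 change was 0.15, beside -0.01 over all genes. Without any 1 of the mice, the Junb change stayed between 1.68 and 2.62. Without normal WT replicate 2 the Junb change was 1.68 and its adjusted p rounded to 1. Cell type markers also moved in WT mice, with 2 of 4 erythroid (median log2 change -1.47), 2 of 5 white fat (-1.50) and 1 of 4 lymphocyte markers (-1.99) lower and 1 of 4 skeletal muscle markers (0.66) higher at an unadjusted p under 0.05. Brown fat markers had a median of -1.88 with 0 of 5 at that limit, and with their level as a covariate the changes were 2.05 for Junb (adjusted p = 0.249) and 1.14 for Ier2 (adjusted p = 0.309). The part of the other markers was not tested.

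In KO mice, more members passed the test after ischemia. Nr4a1 rose from 100.2, 56.2, 114.1 and 74.7 CPM in normal KO mice to 344.8, 632.7, 418.3 and 471.0 CPM in ischemic KO mice. The groups were far apart, and the change was 2.44 ± 0.36, or 5.41-fold (adjusted p = 0.0191). Atf3 rose from 23.1, 14.9, 17.3 and 13.3 CPM to 41.7, 112.4, 80.9 and 81.6 CPM, also without overlap, a change of 2.21 ± 0.32, or 4.62-fold (adjusted p = 0.0132). The 4 normal KO mice enter both this comparison and that of KO with WT under normal conditions, and the same 4 low Nr4a1 values stand in both.

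Junb was 64.3, 28.6, 92.2 and 68.5 CPM in normal KO and 110.2, 148.8, 277.9 and 225.8 CPM in ischemic KO mice, a change of 1.59 ± 0.42, or 3.01-fold (unadjusted p = 0.00218, adjusted p = 0.134). Ier2 was 45.7, 27.7, 54.8 and 32.1 CPM in normal KO and 57.3, 72.9, 74.5 and 76.9 CPM in ischemic KO mice, a change of 0.81 ± 0.26 (unadjusted p = 0.00738, adjusted p = 0.201). Neither gene's groups overlapped. Jun, the partner of Fos in AP-1, was 187.7, 123.6, 127.7 and 124.4 CPM in normal KO and 182.8, 269.6, 156.1 and 188.6 CPM in ischemic KO mice, with overlap through normal KO replicate 1 (0.50 ± 0.24, unadjusted p = 0.0527).

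Of the 10 members, 2 were called in KO mice, against 0.294% of all genes. The unadjusted p was under 0.05 for 4, all higher, against 13.2% of all genes, and the same 4 (Nr4a1, Atf3, Junb and Ier2) were without overlap, against 11.1% of all genes. The members' median log2 change was 0.40, beside -0.05 over all genes. Both calls held with DESeq2, limma-trend and the other tools and filters tried. Both were lost when certain mice were left out. Nr4a1 had an adjusted p of 0.0528 without normal KO replicate 1, 0.0829 without normal KO replicate 2, 0.0567 without normal KO replicate 3 and 0.0637 without ischemic KO replicate 2. Atf3 had 0.0829, 0.0729 and 0.0534 without normal KO replicate 2, normal KO replicate 3 and ischemic KO replicate 2. Over all 14 omissions of 1 mouse the log2 changes stayed between 2.28 and 2.60 for Nr4a1 and between 2.02 and 2.42 for Atf3.

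Markers of blood cells moved the other way in the same KO mice. The summed erythroid markers were 316 to 544 CPM in normal KO and 69.3 to 168 CPM in ischemic KO arteries, with 4 of 4 lower at an unadjusted p under 0.05, and macrophage markers were 92.4 to 283 CPM and 65.9 to 137 CPM, with 3 of 5 lower. Lymphocyte markers, at 1.43 to 13.3 CPM and 0.608 to 2.13 CPM, had 2 of 4 lower and a median log2 change of -2.51. Of the fibroblast markers, 2 of 5 were lower, and 1 of 4 skeletal muscle markers was higher. Their part in the rise of Nr4a1 and Atf3 was not tested. Brown fat markers showed 0 of 5 at that limit in KO mice, and with their level as a covariate the changes were 2.39 for Nr4a1 (adjusted p = 0.00694) and 2.23 for Atf3 (adjusted p = 0.00631).

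**Figure D3:**
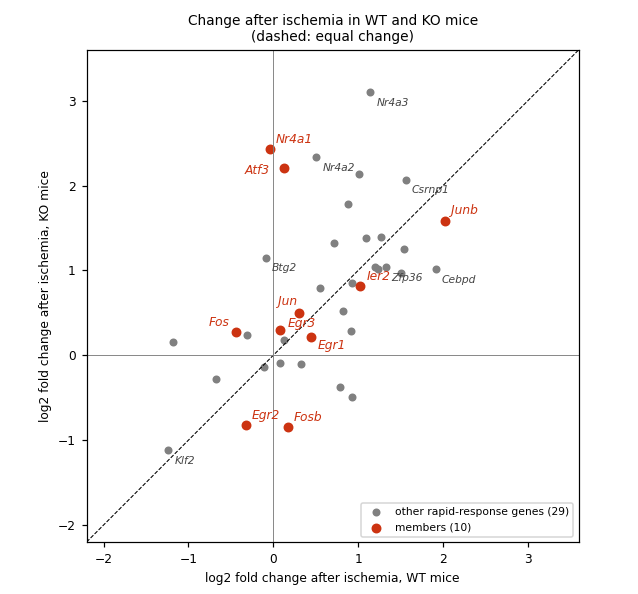
Log2 fold change after ischemia in WT mice (horizontal) and in KO mice (vertical) for the 10 members (red) and the 29 other rapid-response genes tested (grey), with the line of equal change dashed. Junb at 2.03 and 1.59 and Ier2 at 1.03 and 0.81 lie close to the line, while Nr4a1 at -0.04 and 2.44 and Atf3 at 0.13 and 2.21 lie far above it.

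Whether the response to ischemia differed between the genotypes was tested as the interaction of both factors. For Nr4a1 the change in KO exceeded that in WT by 2.48 ± 0.54 (log2, SE; unadjusted p = 0.000421), and for Atf3 by 2.07 ± 0.47 (unadjusted p = 0.000596). Ranked by p they were the genes at places 6 and 7 of 17693, but with an adjusted p of 0.946 neither passed the limit. No member of the 10 was called by edgeR, as for 0% of all genes, and 2 had an unadjusted p under 0.05, against 4.32% of all genes. DESeq2 called Nr4a1 (adjusted p = 0.0202), and limma-trend called none. For Junb the interaction was -0.44 ± 0.63 and for Ier2 -0.21 ± 0.39, so a difference between the genotypes in their response was not detectable with these mice. The group means behind the Nr4a1 value were 425 CPM in normal WT, 86.3 CPM in normal KO, 413 CPM in ischemic WT and 467 CPM in ischemic KO arteries, and those behind the Atf3 value were 29.3, 17.1, 32.1 and 79.1 CPM in the same order. In the list of other rapid-response genes, Btg2 (1.24), Nr4a2 (1.83) and Nr4a3 (1.95) had positive interactions and Ier5l (-1.42) a negative one at an unadjusted p under 0.05, and 0 of 29 were called. Among cell type markers, 2 of 5 fibroblast (median -1.74) and 1 of 4 mesothelium markers (median -2.84) had a negative and 1 of 4 lymphocyte markers a positive interaction at that limit, and their part in the Nr4a1 and Atf3 values was not tested. Brown fat markers had a median of 1.91 with 0 of 5 at that limit, and with their level as a covariate the interaction was 2.34 for Nr4a1 and 2.13 for Atf3 (adjusted p = 0.814 for both).

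Averaged over both genotypes, 3 members rose after ischemia. Junb rose by 1.81 ± 0.32 (log2, SE; 3.5-fold, adjusted p = 0.0221), Atf3 by 1.17 ± 0.23 (2.25-fold, adjusted p = 0.0327) and Ier2 by 0.92 ± 0.20 (1.89-fold, adjusted p = 0.0467). For Atf3 this average joins a change of 0.13 in WT with 2.21 in KO mice. Nr4a1, with 1.20 ± 0.27, was just outside the limit (adjusted p = 0.0549). Thus 3 of 10 members were called, against 0.927% of all genes, and 5 had an unadjusted p under 0.05, Jun among them (0.40 ± 0.18, unadjusted p = 0.0426), against 18.1% of all genes. The members' median was 0.37, beside -0.05 over all genes.

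These calls lay close to the limit. Junb was lost without ischemic WT replicate 2 (adjusted p = 0.0521) or ischemic WT replicate 3 (0.0512). Atf3 was called in 4 of the 14 fits that left out 1 mouse (without normal WT replicate 1, normal KO replicate 1, ischemic WT replicate 3 or ischemic KO replicate 1) and had an adjusted p of at most 0.0789 in the rest. Ier2 was called in 2 of them, without normal WT replicate 2 or normal KO replicate 3, and had an adjusted p of at most 0.101. Ier2 also missed the limit with DESeq2 size factors (0.0522) and with a replicate block (0.0681). Nr4a1 passed without normal WT replicate 2 (0.0351) or ischemic WT replicate 1 (0.0411), and with DESeq2 (0.00136), limma-trend (0.0391), no low-count filter (0.039) or the brown fat covariate (0.0223). In the average over genotypes 4 of 4 erythroid, 3 of 5 macrophage, 3 of 5 white fat and 2 of 4 lymphocyte markers were lower at an unadjusted p under 0.05. At that limit 2 of 4 skeletal muscle and 1 of 6 smooth muscle markers were higher. The lymphocyte marker Cd3g was called (adjusted p = 0.0322). The summed lymphocyte markers reached at most 13.3 CPM in any mouse, so their changes, here and above, rest on few reads. The part of all these markers in the members' changes was not tested.

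Fos, Fosb, Egr1, Egr2 and Egr3, the genes most often used as markers of an immediate-early response, had no adjusted p under 0.05 in any comparison. Fos, which read 20.0 to 58.3 CPM in normal WT, 12.6 to 42.6 CPM in normal KO, 13.0 to 41.8 CPM in ischemic WT and 21.1 to 48.8 CPM in ischemic KO arteries, overlapped between all groups. Egr1, induced in vessels by shear and growth factors, was 190 ± 28.5 CPM (SD, n = 3) in normal WT, 170 ± 79.1 CPM (n = 4) in normal KO, 260 ± 79.4 CPM (n = 3) in ischemic WT and 197 ± 26.4 CPM (n = 4) in ischemic KO arteries. Egr2 stayed at 0.7 to 6.0 CPM and Egr3 at 1.7 to 8.4 CPM over the 14 mice. The averaged change after ischemia was -0.08 ± 0.34 for Fos, -0.34 ± 0.41 for Fosb, 0.33 ± 0.23 for Egr1, -0.57 ± 0.42 for Egr2 and 0.19 ± 0.41 for Egr3.

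The lists of related genes show what else moved after ischemia. Of 29 other rapid-response genes tested, 8 were called higher in the average over genotypes and 0 lower, against 0.927% of all genes. Their median log2 change was 0.89. At an unadjusted p under 0.05, 18 were higher and 1 was lower, against 18.1% of all genes. The smallest p belonged to Csrnp1, which rose by 1.81 ± 0.20 (adjusted p = 0.00281). Ier5, a relative of Ier2, rose by 1.40 ± 0.27, Zfp36, which destabilises cytokine mRNAs, by 1.18 ± 0.23 and Gadd45g, a growth arrest gene, by 1.24 ± 0.24, each with an adjusted p of 0.0299. The gene lower at the unadjusted limit was Klf2, the flow-induced endothelial factor, at -1.17 ± 0.26 (adjusted p = 0.0511). Within WT mice 9 of the 29 were higher and 1 lower at an unadjusted p under 0.05, against 9.57% of all genes. In WT mice 0 were called and the median was 0.88. Within KO mice 15 were higher and 1 lower at that limit, against 13.2% of all genes, with a median of 0.97. Of the 29, 1 was called in KO mice, Csrnp1 (2.07 ± 0.27, adjusted p = 0.0074), against 0.294% of all genes. After ischemia KO and WT arteries differed at the unadjusted limit in 0 of the 29, against 6.48% of all genes. Egr4, also in that list, had 18 counts in all and was not tested.

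Among the 15 other AP-1 and leucine zipper genes, 4 were called higher in the average over genotypes, against 0.927% of all genes. Maff, a small Maf protein, rose by 2.28 ± 0.31 (adjusted p = 0.00525), from group means of 26.4 and 17.0 CPM in normal WT and KO to 100 and 105 CPM in ischemic WT and KO arteries. Atf4, the factor of the integrated stress response, rose by 0.83 ± 0.15 (adjusted p = 0.0232) and Fosl2 by 1.47 ± 0.27 (adjusted p = 0.026). Fosl1 was also called (adjusted p = 0.0467), but had 0 counts in all 4 normal KO mice and at most 5 in a normal WT mouse, against 5 to 48 in ischemic mice, so no fold is given. Within KO mice Maff (2.63 ± 0.41, adjusted p = 0.0215) and Atf4 (1.07 ± 0.20, adjusted p = 0.0447) were called, against 0.294% of all genes. Within WT mice 0 of 15 were called, although 5 were higher at an unadjusted p under 0.05, against 9.57% of all genes. The list's median was 0.28 in the average.

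The upstream list of 25 genes, kinases and promoter-bound factors known to act on immediate-early genes, had 0 called genes in any of the 6 comparisons. In the average over genotypes 5 were higher and 4 lower at an unadjusted p under 0.05, against 18.1% of all genes. The list's median there was 0.05. The smallest p belonged to Mef2d, a factor that binds the Jun and Nr4a1 promoters, at 0.66 ± 0.15 (adjusted p = 0.0606), and to Rps6ka1, a kinase downstream of ERK, at -1.07 ± 0.29 (adjusted p = 0.102). Map2k4, which activates the Jun kinases, was at 0.30 ± 0.10 (adjusted p = 0.161), and Srf itself at 0.58 ± 0.21 (adjusted p = 0.188). In KO against WT arteries after ischemia, 3 of the 25 were lower and 1 was higher at that limit, against 6.48% of all genes. Myocd, the SRF partner of smooth muscle, was at -1.40 ± 0.54 (unadjusted p = 0.0209) Elk4 at -0.50 ± 0.19 (unadjusted p = 0.0189), Mkl1 at -0.54 ± 0.23 (unadjusted p = 0.0326) and Elk1 at 0.35 ± 0.15 (unadjusted p = 0.0378), none past the call.

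Mice of the same group also differed from each other in these genes. The SD within groups on the log2 scale was widest for Fosb at 0.87 and narrowest for Jun at 0.34, beside a median of 0.54 over all genes tested, and Nr4a1 stood at that median with 0.54. With group means removed, 39 of the 45 pairs of members had a positive Pearson correlation over the 14 mice, with a median r of 0.27 and 9 pairs above 0.5. The highest values were 0.84 for Egr2 with Nr4a1, 0.73 for Egr2 with Egr3 and 0.66 for Egr1 with Ier2. The lowest was -0.26 for Fos with Jun, the partners in AP-1. These correlations describe single libraries in which all genes share depth and tissue makeup. Members also followed the tissue markers to different degrees within groups. With the smooth muscle markers r ran from -0.60 for Egr3, -0.56 for Egr2 and -0.40 for Nr4a1 to 0.44 for Fos and 0.58 for Fosb, and Atf3 had -0.00344. With the brown fat markers r ran from -0.52 for Fosb to 0.28 for Ier2, with 0.25 for Nr4a1.

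**Figure D4:**
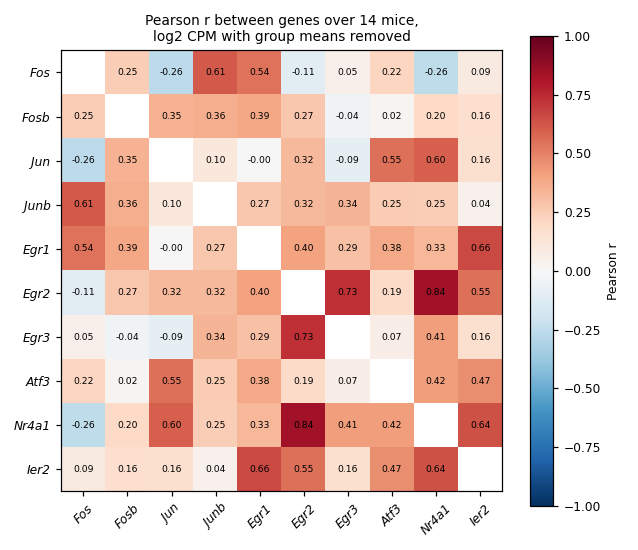
Pearson r between each pair of the 10 genes over 14 mice, from log2 CPM with group means removed (red positive, blue negative). The darkest cells are Egr2 with Nr4a1 at 0.84 and Egr2 with Egr3 at 0.73, and Fos has its lowest values with Jun and Nr4a1, both near -0.26.

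The genes most like the members were sought by the correlation of log2 CPM with the members' mean over the 14 mice. With group means removed, the 10 highest were Tnfrsf19 (r = 0.92), Hdac6 (0.89), Tmem179b (0.89), Stmn2 (0.88), Ermard (0.87), Krt8 (0.87), Irx2 (0.86), Ptgs1 (0.85), Trim29 (0.85) and LOC105244150 (0.84). Tnfrsf19, Krt8, Trim29 and LOC105244150 averaged at most 1.02 CPM. With group means kept, the 10 highest were Gm41442 (0.88), Trim29 (0.87), Klf15 (0.85), Trp53i11 (0.84), Ddit4 (0.83), Zfp36 (0.83), Snord55 (0.83), Rab11b-ps1 (0.82), Snhg5 (0.82) and Rps10-ps2 (0.81). Zfp36 is in the rapid-response list, and Klf15 and Ddit4 are known targets of the glucocorticoid receptor. These values were picked as the highest of all genes tested over the same 14 mice and carry no p.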

How the data were processed

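RNA was extracted with Trizol from the superior mesenteric artery of each mouse, and libraries were aligned to mm10 with HISAT2 2.0.4, per the submitters' processing notes. The authors deposited one table of whole-number read counts per gene symbol for the 14 mice; the counting program, its annotation and its use of strand are not given in the sources used here. All 14 columns were matched to samples by title.

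Counts were filtered with filterByExpr by group (17693 genes kept), scaled by TMM, and tested with the quasi-likelihood test of edgeR 4.0.16 in R 4.3.3, all 14 mice in 1 fit of 4 group means with 10 residual degrees of freedom. A call needed an adjusted p (Benjamini-Hochberg over all genes tested) under 0.05 and a fold over 1.5, the limits of the study's methods. Levels are TMM-scaled CPM, log2 CPM used a prior count of 2, and RPKM divides CPM by the length of merged exons. DESeq2 1.42.0, limma-trend (limma 3.58.1), other scalings and filters, a replicate block and the omission of each mouse were alternatives, and a brown fat marker covariate (log2 of their summed CPM) was added after the data were seen. Replicate numbers name different mice, so they were not used to pair samples in the main fit. Of 19 same-number pairs, 11 had correlated deviations over 0.1 (-0.15 to 0.32). Pairs of different numbers were not computed, so these values cannot decide whether a replicate number marks something shared. The labels state no litters, and no batches beyond the lane field, which was not in the fit. The p-values set each difference against the spread between these mice, whatever its source.

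The members and lists were chosen with earlier results of these data known. Named genes were the 10 members, up to 4 genes of each list per comparison by smallest p among those called or at an unadjusted p under 0.05 (the lists hold 15 AP-1 and leucine zipper, 30 rapid-response and 25 upstream genes in the table), the 10 genes most correlated with the members' mean in each of 2 ways, markers beside a result, and Dnm1l. The test script was tested on simulated data.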

Additional observations from a re-analysis of the deposited data

Results flagged for a closer look

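Jun in normal KO mice had 1 animal far from the others. Replicate 1 read 187.7 CPM, and the gap to the next mouse made up 0.936 of the range of the 4 values. This was the single case among 20 sets of 4 values examined, from the 10 members in the normal and ischemic KO mice. Chance alone marks about 1 in 20, but these sets share the same mice and are not separate chances. Its cause was not tested.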

How the results depend on the processing

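Over the alternatives, 127 counts of called members stayed within 1.5 times the reported count and 15 moved. The 127 include every count of 0 that stayed at 0 where edgeR called no member, so the total does not measure how stable the calls were. Single changes were followed only for Nr4a1, Atf3, Junb and Ier2, each called in some comparison, and for other members where the unadjusted p was under 0.05. Of these, 533 kept their direction and their side of the limit, 33 lost it, 10 gained it and 13 turned in sign. Members outside this selection turned in sign too, such as Fos in 6 alternatives for the average over genotypes and Egr3 in 5 for KO against WT after ischemia. By DESeq2 1 member was called between KO and WT arteries under normal conditions, 1 after ischemia in WT mice and 1 for the interaction, where edgeR called 0, and the cause was not tested. DESeq2 also called more genes in all, 41, 108 and 11 in these comparisons against 0, 2 and 0, 18 against 0 between genotypes after ischemia, 606 against 52 in ischemic KO and 872 against 164 in the average. With a replicate block, 2 members were called in ischemic KO mice and 2 in the average over genotypes, Ier2 no longer among them. In the other comparisons 0 were called with the block. The share of all genes called with the block is not set beside these counts, so they describe the members only. Leaving out 1 mouse gave 0 to 2 members in ischemic KO mice (5 to 174 genes in all) and 0 to 3 in the average (60 to 361 genes), where fewer mice enter the fit. Some changes that did not pass the test turned in sign. For KO against WT under normal conditions, Junb was 0.0778 with the brown fat covariate and -0.546 to 0.388 over the omissions of 1 mouse, and Ier2 was -0.471 to 0.129. For KO against WT after ischemia, Nr4a1 was -0.0229 with the covariate and -0.0664 to 0.353. For ischemia in WT mice, Nr4a1 was 0.0439 with limma-trend, 0.0456 with the covariate and -0.363 to 0.393, and Atf3 was -0.0838 to 0.357. The Ier2 interaction was -0.584 to 0.0119. Of the members' medians, all 136 values stayed within the spread between mice. With only 3 or 4 mice in a group, and low counts for Egr2 and Egr3, small changes were not detectable.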
